A study of Mus musculus with 8 samples.

Results

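The 10 genes described here encode receptors of the TGF-beta superfamily. Their RNA was measured in the periventricular area of the adult mouse brain, which contains the ventricular-subventricular zone (V-SVZ). They were taken by symbol from the table of 54307 gene identifiers and were *Bmpr1a*, *Bmpr1b*, *Acvr1*, *Acvr1b* and *Tgfbr1* (type I), *Bmpr2*, *Acvr2a*, *Acvr2b* and *Tgfbr2* (type II) and *Tgfbr3* (type III). All 10 passed the filter on low counts. The tissue came from 4 *Lrig1* knockout (KO) and 4 wild-type (WT) mice, all 8 weeks old and on the 129-Elite strain background, with polyA RNA from 1 hemisphere of each mouse. KO mice carried CreERT2 inserted in exon 1 on both *Lrig1* alleles, a constitutive loss in every cell, and WT mice were littermates homozygous for the wild-type allele. The labels name no drug treatment. The WT group held 3 females (WT 1, WT 3 and WT 4) and 1 male (WT 2), and the KO group held 2 females (KO 2 and KO 4) and 2 males (KO 1 and KO 3), so genotype and sex were not balanced. The study compared the whole transcriptomes to look for signalling pathways that loss of LRIG1, a transmembrane inhibitor of growth factor signalling, disrupts.

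TGF-beta superfamily ligands (TGF-betas, activins, BMPs and GDFs) act through complexes of type I and type II receptors, both of which are transmembrane serine/threonine kinases. The type II receptor is constitutively active and phosphorylates the type I receptor, which then phosphorylates receptor SMADs. Type I receptors of the BMP branch (BMPR1A, BMPR1B and ACVR1) act on SMAD1, SMAD5 and SMAD9, and those of the activin and TGF-beta branch (ACVR1B and TGFBR1) act on SMAD2 and SMAD3. The type III receptor TGFBR3 (betaglycan) has no kinase and presents ligand to the other two classes. In the V-SVZ both branches are known to restrain the proliferation of neural stem cells, and BMP signalling is known to hold them in quiescence.

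Library totals lay between 47887437 and 61826150 estimated reads in WT mice and between 52664769 and 74482334 in KO mice. *Lrig1*, the targeted gene, lay at 45.6, 13.5, 41.4 and 34.3 CPM (counts relative to library size, scaled by TMM) in WT 1 to WT 4 and at 1.41, 4.15, 1.17 and 2.96 CPM in KO 1 to KO 4, so each KO mouse lay below each WT mouse. Its log2 fold change was -3.80 (SE 0.52). Its adjusted p in edgeR's quasi-likelihood test (Benjamini-Hochberg) was 0.286 without a term for sex and 0.000176 with one. In DESeq2 the adjusted p was 4.46e-08 without and 4.88e-97 with a term for sex. The edgeR test of genotype alone thus did not call the targeted gene at 0.1, which limits what its counts of 0 can show. No marker of the 63 on 13 cell type lists was at 0 in all 8 mice, markers of neural stem cells and neuroblasts among them. By genotype 0 of the 63 markers were called and 4 (1 each on the lists of astrocytes and neural stem cells, oligodendrocyte precursors, microglia and mural cells) had an unadjusted p under 0.05 in edgeR's test, a threshold that 1.88% of all genes reached. Markers of cortical excitatory neurons varied most between mice: their 6 genes summed to between 41.6 and 346 CPM in the 5 females and between 466 and 1777 CPM in the 3 males. The tissue was bulk, and fewer cells of a type and less RNA per cell cannot be told apart in these values.

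Which branch a type I receptor serves is set largely by a short loop of its kinase domain, the L45 loop, and the coding sequence of this loop is shown because it pairs *Bmpr1a* with *Bmpr1b* and *Acvr1b* with *Tgfbr1*, while *Acvr1* matches neither pair closely. The runs below are the 33 coding bases, 5′ to 3′, around the loop in the most abundant transcript of each receptor (Gencode M21, build GRCm38). Capitals mark bases that differ from *Bmpr1a*.
Bmpr1a: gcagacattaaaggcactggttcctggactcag
Bmpr1b: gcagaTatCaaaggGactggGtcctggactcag
Acvr1: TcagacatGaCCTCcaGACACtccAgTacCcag
Acvr1b: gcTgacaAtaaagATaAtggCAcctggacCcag
Tgfbr1: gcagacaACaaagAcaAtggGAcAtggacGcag
The *Bmpr1a* stretch lay in exon 10 of Bmpr1a-201 (chr14:34422814-34422846, minus strand). The *Bmpr1b* stretch lay in exon 8 of Bmpr1b-201 (chr3:141856603-141856635, minus strand) and the *Acvr1* stretch in exon 9 of Acvr1-204 (chr2:58463113-58463145, minus strand). Those of *Acvr1b* (chr15:101199002-101201997, plus strand) and *Tgfbr1* (chr4:47396573-47402822, plus strand) each ran from exon 4 into exon 5 of their transcripts and so spanned an intron. *Bmpr1b* shared 29 of 33 bases with *Bmpr1a*, *Acvr1b* and *Tgfbr1* each shared 25, and *Acvr1* shared 19. When translated, all 11 codons of *Bmpr1b* gave the same residues as *Bmpr1a*, and all 11 of *Acvr1b* gave the same residues as *Tgfbr1*. The BMP pair and the activin and TGF-beta pair had 7 of 11 residues in common. *Acvr1* had 4 residues in common with *Bmpr1a* and 3 with *Tgfbr1*.

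The receptors spanned a 20.5-fold range of level. In TPM, Salmon's measure relative to transcript length and library, summed over each gene's transcripts, the activin type I receptor *Acvr1b* was highest with 43.3 ± 6.67 TPM (SD, n = 8), above 90.6% of all genes with reads. The BMP type II receptor *Bmpr2* followed with 19.98 ± 2.25 TPM. *Bmpr1a* had 16.9 ± 2.06 TPM and *Acvr1*, a type I receptor of the BMP branch best known as ALK2, had 15.0 ± 2.13 TPM. In the middle of the order stood *Acvr2a* with 10.7 ± 2.07 TPM, *Tgfbr1* with 9.41 ± 0.887 TPM and *Bmpr1b* with 8.31 ± 1.54 TPM. The lowest levels were 5.02 ± 0.735 TPM for *Tgfbr2*, 2.79 ± 0.770 TPM for *Acvr2b* and 2.11 ± 0.232 TPM for *Tgfbr3*, which still lay above 57.8% of genes with reads. The ligand-binding TGF-beta receptor *Tgfbr2* was thus the lower of the obligate *Tgfbr1* and *Tgfbr2* pair in each of the 8 mice.

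**Figure D1:**
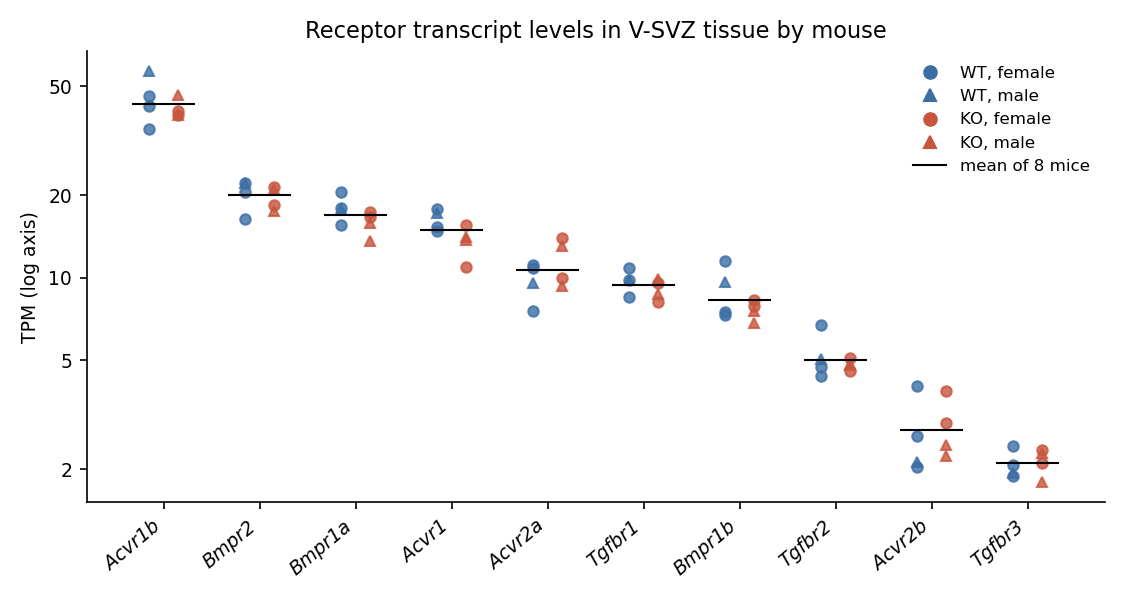
Level of each receptor in TPM on a log axis, ordered by the mean of 8 mice (black lines). Each point is 1 mouse, with circles for females, triangles for males, blue for WT and red for KO. *Acvr1b* lies between 34.9 and 56.8 TPM, above every value of the other receptors, and *Tgfbr3* lies between 1.80 and 2.44 TPM.

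Not all steps of this order were clear of the spread between mice. The ranges of neighbours overlapped in 6 of 9 steps and were apart only between *Acvr1b* and *Bmpr2*, between *Bmpr1b* and *Tgfbr2* and between *Tgfbr2* and *Acvr2b*. Within single mice the order was firmer: 6 of the 9 steps ran the same way in all 8 mice, *Bmpr1a* above *Acvr1* and *Tgfbr1* above *Bmpr1b* held in 7, and *Acvr2a* above *Tgfbr1* held in 5. Together the 10 receptors summed to 138 ± 18.6 TPM in WT and 129 ± 9.67 TPM in KO mice (SD, n = 4 each). Of this sum the BMP type I receptors made up 31.4 ± 1.76% in WT and 28.9 ± 1.09% in KO mice. *Acvr1b* and *Tgfbr1* together made up 39.6 ± 2.88% and 39.3 ± 2.33%. The type II receptors made up 27.5 ± 1.55% and 30.1 ± 1.74%. Other receptors of the family were outside this sum, among them the type I receptor *Acvr1c*. Its mean level was 58.3 CPM in WT and 50.8 CPM in KO mice. CPM is not relative to transcript length, so these values cannot be set against the TPM sum.

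No receptor had a called change between KO and WT mice. In edgeR's quasi-likelihood test over 17669 genes, 0 of the 10 receptors passed an adjusted p (Benjamini-Hochberg) of 0.1, 0 reached an unadjusted p under 0.05, and 0 had KO and WT mice that did not overlap. DESeq2 also called 0 of 10, both without and with sex as a covariate, where it called 0.0619% and 1.13% of all genes. Over all genes tested with edgeR the shares were 0.00566% at the adjusted threshold (1 gene, *Gm43079*, named after its values were seen), 1.88% at the unadjusted one and 1.53% for groups that did not overlap. Against these shares a count of 0 among 10 genes says nothing particular to the receptors. The median log2 fold change (KO over WT) was -0.058 over the receptors, with 4 higher and 6 lower, and -0.00094 over all genes tested.

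**Figure D2:**
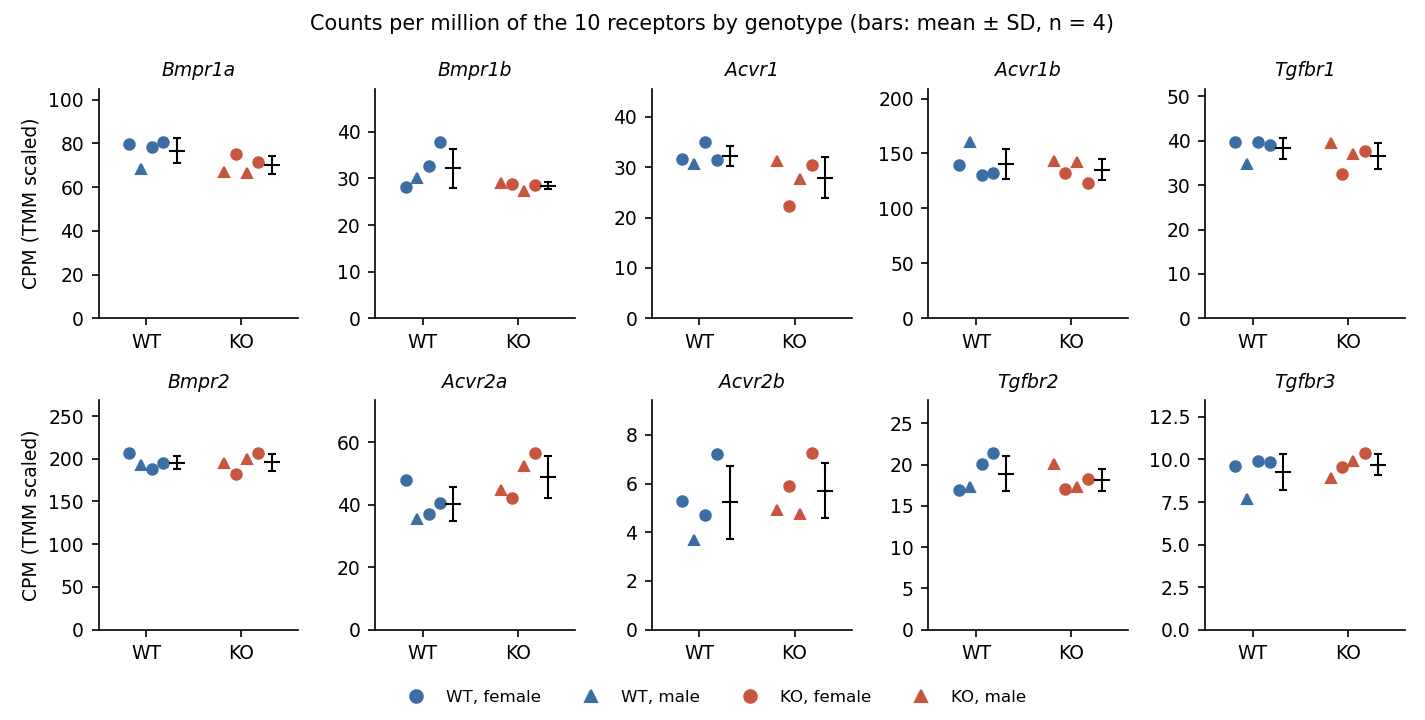
CPM of each receptor by genotype, with every axis starting at 0. Points are mice (circles females, triangles males), and the bars give the mean ± SD of 4 mice. In all 10 panels the values of KO and WT mice overlap; the 2 highest *Acvr2a* values, 52.5 and 56.5 CPM, are KO mice.

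Among the type I receptors of the BMP branch all 3 had lower means in KO mice, none of which passed the test. *Bmpr1a* (chr14:34410734-34503341, minus strand, GRCm38, as for the coordinates that follow), the BMP receptor ALK3, had 79.6, 68.4, 78.2 and 80.6 CPM in WT 1 to WT 4 and 67.0, 75.3, 66.3 and 71.6 CPM in KO 1 to KO 4. The 3 female WT mice were highest, and the male WT mouse fell among the KO mice. The log2 fold change was -0.13 (SE 0.075, 95% interval -0.30 to 0.039, unadjusted p = 0.115 in edgeR's quasi-likelihood test), which corresponds to -8.67% with limits of -18.8% and 2.75%. In 18 alternative settings it ran from -0.18 without WT 2 to -0.086 with sex as a covariate. The unadjusted p fell under 0.05 in 2 of them, and the lowest adjusted p was 0.835 in edgeR's test with sex.

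*Bmpr1b* (chr3:141837136-142169425, minus strand), the BMP receptor ALK6, had 28.1, 30.1, 32.7 and 37.8 CPM in WT 1 to WT 4, against 28.9, 28.8, 27.3 and 28.6 CPM in KO 1 to KO 4. The KO mice lay within a narrow band, with an SD of 0.753 CPM against 4.21 CPM in WT mice, and the lowest WT mouse lay inside it. The log2 fold change was -0.18 (SE 0.096, 95% interval -0.40 to 0.039), and it moved to -0.091 without WT 4 and to -0.24 without WT 1. Of 18 alternative settings, only that without WT 1 gave an unadjusted p under 0.05 in edgeR's test.

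*Acvr1* (chr2:58388644-58567157, minus strand) had 31.6, 30.5, 35.0 and 31.3 CPM in WT 1 to WT 4, against 31.2, 22.4, 27.6 and 30.4 CPM in KO 1 to KO 4. KO 2, KO 3 and, narrowly, KO 4 lay below all WT mice, while KO 1 lay among them. The log2 fold change was -0.20 (SE 0.11, 95% interval -0.45 to 0.047). Its unadjusted p in edgeR's quasi-likelihood test was 0.0996. Without KO 2, the lowest mouse, the log2 fold change was -0.11, and in females alone it was -0.30.

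The type I receptors of the activin and TGF-beta branch were not called by genotype either. *Acvr1b* (chr15:101174067-101213684, plus strand), the activin receptor ALK4, had 139.4, 160.5, 130.6 and 132.5 CPM in WT 1 to WT 4, against 143.1, 131.9, 142.7 and 123.4 CPM in KO 1 to KO 4. The 3 highest values belonged to the 3 males, 1 of them WT. The log2 fold change by genotype was -0.057 (SE 0.087) and changed sign to 0.010 without WT 2. With sex as a covariate it was -0.11 (SE 0.062), beside -0.086 (SE 0.056) for *Bmpr1a*. With the summed cortical marker level as the covariate, an alternative added after the data were seen, it was -0.0061 (SE 0.062), beside -0.17 (SE 0.063) for *Bmpr1a*. *Tgfbr1* (chr4:47353222-47414931, plus strand), the TGF-beta receptor ALK5, lay between 34.9 and 39.7 CPM in WT and between 32.5 and 39.4 CPM in KO mice, with a log2 fold change of -0.065 (SE 0.081). It was -0.011 without KO 2, -0.11 without WT 2 and -0.17 in females alone.

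Of the type II receptors, *Acvr2a* had the change of lowest p among the 10. *Acvr2a* (chr2:48814109-48903269, plus strand) binds activins and also serves BMPs. It had 47.9, 35.3, 37.0 and 40.6 CPM in WT 1 to WT 4 and 44.6, 42.2, 52.5 and 56.5 CPM in KO 1 to KO 4. KO 3 and KO 4 lay above every WT mouse, but WT 1 lay above KO 1 and KO 2. The group means were 40.2 ± 5.59 CPM in WT and 49.0 ± 6.69 CPM in KO mice (SD, n = 4 each), and the log2 fold change was 0.28 (SE 0.13, 95% interval -0.0025 to 0.57).
Its unadjusted p in edgeR's quasi-likelihood test was 0.0516, which ranked 349 of 17669 genes, with an adjusted p of 0.9998 after the Benjamini-Hochberg procedure. Across 18 alternative settings the log2 fold change stayed between 0.21 and 0.38, the unadjusted p fell under 0.05 in 7, and the lowest adjusted p was 0.556 (DESeq2 with sex as a covariate). The largest value came without WT 1 and the smallest without KO 4. In the annotation used here 7.36% of the 31-base words in the *Acvr2a* transcript also occur in transcripts of the overlapping gene *Orc4*, on the opposite strand, and no strand setting was stated, so reads there cannot be told apart.

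The remaining type II receptors gave no direction that held. *Bmpr2* (chr1:59763400-59879014, plus strand), the main BMP type II receptor, lay between 187.7 and 206.3 CPM in WT and between 182.4 and 206.5 CPM in KO mice. Its log2 fold change was 0.0033 (SE 0.067, 95% interval -0.15 to 0.16), and its biological coefficient of variation of 0.101 was at the percentile 3.57 of all genes tested, among the steadiest. *Acvr2b* (chr9:119402118-119434995, plus strand), the second activin type II receptor, had 5.27, 3.68, 4.73 and 7.22 CPM in WT 1 to WT 4, against 4.92, 5.92, 4.77 and 7.25 CPM in KO 1 to KO 4. Both genotypes held 1 high mouse, WT 4 and KO 4. Its log2 fold change was 0.13 (SE 0.22, 95% interval -0.37 to 0.63), and it ranged from -0.0055 without WT 2 to 0.33 without WT 4. It was 0.27 (SE 0.16) with sex as a covariate and 0.016 (SE 0.19) with the summed cortical marker level as the covariate. Only 222 to 460 reads per mouse lay behind these values, which alone gives a counting SD of 6.71% at the lowest.

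*Tgfbr2* (chr9:116084293-116175360, minus strand), the TGF-beta binding type II receptor, had 17.0, 17.3, 20.1 and 21.4 CPM in WT 1 to WT 4, against 20.1, 17.0, 17.3 and 18.3 CPM in KO 1 to KO 4, with a log2 fold change of -0.060 (SE 0.10). The KO values lay inside the WT range. *Tgfbr3* (chr5:107106570-107289629, minus strand), the co-receptor betaglycan, had 9.59, 7.67, 9.93 and 9.83 CPM in WT 1 to WT 4, against 8.91, 9.53, 9.93 and 10.4 CPM in KO 1 to KO 4. WT 2 was the lowest of all 8, and without it the log2 fold change of 0.066 (SE 0.11) became -0.016.

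**Figure D3:**
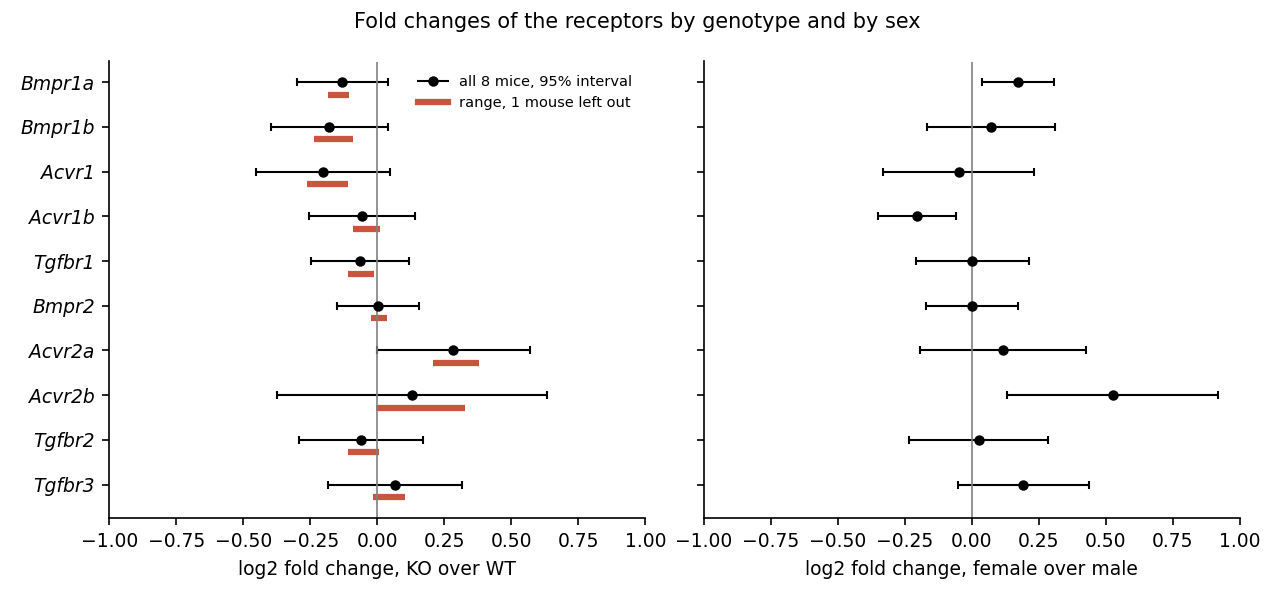
Log2 fold changes of the receptors with 95% intervals from edgeR (black), KO over WT on the left and female over male on the right, both in all 8 mice. Red bars on the left give the range when 1 mouse at a time was left out. On the left all 10 intervals include 0; on the right those of *Bmpr1a*, *Acvr1b* and *Acvr2b* do not.

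The shares of the receptors within each mouse, which do not depend on library size, were compared as well. *Acvr2a* made up 8.34, 6.27, 6.65 and 7.07% of the summed receptor TPM in WT 1 to WT 4, against 7.92, 8.10, 9.49 and 10.3% in KO 1 to KO 4. The means were 7.08 ± 0.897% and 8.95 ± 1.13%, with p = 0.0857 in a two-sided exact permutation test (n = 4 each), adjusted to 0.571 over 10 shares. The other 9 shares had p-values between 0.171 and 0.943 in the same exact permutation test, and 0 of 10 passed the adjusted threshold of 0.1. The smallest p that 4 against 4 mice can give is 0.0286, which adjusts to 0.286 for 1 share of 10, so a single share could not have passed.

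Between the sexes *Bmpr1a* and *Acvr2b* had higher and *Acvr1b* had lower means in females, with unadjusted p-values under 0.05. With genotype in the model, 0 of 10 receptors passed an adjusted p of 0.1 for female against male in edgeR's quasi-likelihood test (Benjamini-Hochberg), where 3.72% of all genes did. At an unadjusted p under 0.05 there were 3 receptors, against 15.9% of all genes, and in 2 the sexes did not overlap, against 7.5% of all genes. DESeq2 called 1 receptor, *Acvr2b*, against 7.69% of all genes. Of the receptors 8 were higher and 2 lower in females, where 50.5% of all genes were higher. Among the 8, log2 fold changes of *Bmpr2* (0.0024), *Tgfbr1* (0.0026) and *Tgfbr2* (0.027) lay near 0.
*Bmpr1a* lay at 68.4, 67.0 and 66.3 CPM in the 3 males (WT 2, KO 1 and KO 3) and between 71.6 and 80.6 CPM in the 5 females, so the sexes did not overlap. Its log2 fold change, female over male, was 0.17 (SE 0.059, adjusted p = 0.201 in edgeR's quasi-likelihood test). *Acvr1b* went the other way, with 160.5, 143.1 and 142.7 CPM in the males and 123.4 to 139.4 CPM in the females. Its log2 fold change was -0.20 (SE 0.064, adjusted p = 0.171 in the same edgeR test), which is to say lower in females.
*Acvr2b* lay at 3.68, 4.92 and 4.77 CPM in the males and between 4.73 and 7.25 CPM in the females, which overlapped through WT 3. The log2 fold change was 0.53 (SE 0.17), with an adjusted p of 0.186 in edgeR's test and of 0.0703 in DESeq2. No receptor passed the test for a genotype effect that differs between the sexes: 0 of 10 reached an unadjusted p under 0.05 in edgeR's test of the interaction, against 7.48% of all genes, and 1 of 17669 genes was called. The group of WT males was 1 mouse.

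The cortical neuron markers moved with sex in the same mice, and 5 of their 6 genes were called in the female against male test, lower in females. By genotype they were not called, and their sum ranged from 78.8 to 1777 CPM in WT and from 41.6 to 850 CPM in KO mice. Their summed level was 1777 CPM in WT 2, 466 in KO 1 and 850 in KO 3, the 3 males, against 346 CPM in WT 1 as the highest female. With this level as a covariate, an alternative added after the data were seen, the log2 fold change by sex was -0.090 (SE 0.19) for *Acvr1b*, 0.25 (SE 0.18) for *Bmpr1a* and 0.86 (SE 0.50) for *Acvr2b*, and 0 genes were called. The part of cortical tissue in these differences was not tested further, and sex and the cortical marker level cannot be told apart in 8 mice. Without WT 2, the log2 fold changes by sex were -0.15 for *Acvr1b*, 0.15 for *Bmpr1a* and 0.46 for *Acvr2b*, and 10 genes were called in place of 657.

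Over the 8 mice, 4 of 130 relations between a receptor and a summed marker level (both as log2 CPM) had a Pearson r beyond 0.8 in size. *Acvr1b* followed the cortical excitatory neuron markers (r = 0.932, Spearman rho = 0.952, n = 8), and still did so without the 2 mice farthest from the median marker level (r = 0.894, n = 6). *Tgfbr1* followed the 5 microglia markers (r = 0.894, rho = 0.810, and r = 0.899 without 2 mice), and *Acvr1* followed them too, though less without 2 mice (r = 0.833, rho = 0.905, then 0.638). *Tgfbr2* followed the 4 markers of cycling progenitors (r = 0.878, rho = 0.786, then 0.890). The cutoff of 0.8 did not tie *Tgfbr1*, *Acvr1* and *Tgfbr2* to the named markers only, since other lists came close to it. For *Tgfbr1*, r was 0.798 with oligodendrocyte and 0.775 with striatal neuron markers. For *Acvr1* it was 0.795 with oligodendrocyte and 0.778 with mural cell markers, and for *Tgfbr2* it was 0.786 with microglia markers. *Acvr1b* in turn ran opposite to the choroid plexus markers (r = -0.758) and the striatal neuron markers (r = -0.639).
These are descriptions over points that share 1 library each, with its depth and composition, and the 130 relations were not independent. Neither sex held the 6 mice needed for a correlation of its own. Among the 5 females, cortical sums of 346, 242, 78.8, 62.9 and 41.6 CPM went with *Acvr1b* levels of 139.4, 132.5, 130.6, 131.9 and 123.4 CPM, so the highest and the lowest female in the one were also those in the other. The microglia markers summed to between 268 and 353 CPM in WT and between 246 and 325 CPM in KO mice, and those of cycling progenitors to between 44.0 and 58.6 and between 41.4 and 53.6 CPM.

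**Figure D4:**
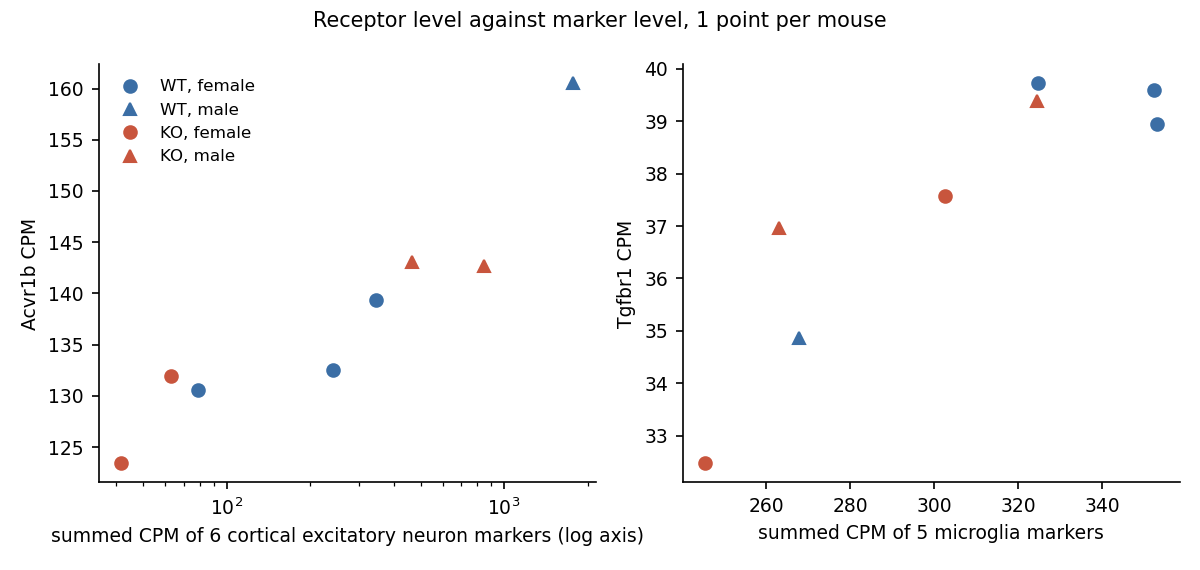
CPM of *Acvr1b* against the summed CPM of 6 cortical excitatory neuron markers (left, log x axis), and CPM of *Tgfbr1* against the summed CPM of 5 microglia markers (right). Neither CPM axis starts at 0. Each point is 1 mouse; the 3 males (triangles) are the highest in *Acvr1b* and in the cortical markers.

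Among the receptors themselves 3 of 45 pairs had an r beyond 0.8 in size. *Acvr1* and *Tgfbr1* went together over the mice (r = 0.853, rho = 0.881), while *Acvr1b* ran opposite to *Tgfbr3* (r = -0.893, rho = -0.786) and to *Acvr2b* (r = -0.840, rho = -0.595). Each of these weakened when the 2 mice farthest from the median of the first gene were left out, to 0.464, -0.472 and -0.481 in 6 mice. The genes most like a receptor over the 8 mice were drawn from those with a mean of at least 1 CPM. They were picked for the highest r among all of these, so high values come in part from the picking. Their Spearman rho lay between 0.667 (*Arpin* with *Tgfbr3*) and 1 (*Taf4* with *Bmpr1a*, *Shld2* with *Acvr2a*). *Acvr1b* had the closest match, *Krt80* (r = 0.995), and then *Ptprn2* (r = 0.983), and 251 genes had an r above 0.9 with it. For *Bmpr2*, by contrast, there were 7 such genes, with *Ptchd4* (r = 0.962) and *Togaram1* (r = 0.949) the nearest. The nearest genes were *Taf4* and *Hus1* for *Bmpr1a*, *Slc12a4* and *Pxn* for *Bmpr1b*, *Casq2* and *Sipa1l1* for *Acvr1*, *Arhgap11a* and *Jcad* for *Tgfbr1*, *Shld2* and *Zfp961* for *Acvr2a*, *Senp1* and *Gfer* for *Acvr2b* and *Gipc2* and *Arpin* for *Tgfbr3*, with r between 0.956 and 0.987.

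The transcript values give an estimated share for each annotated form of a receptor. They are Salmon's estimates, and their error within a mouse was not examined. In 6 receptors 1 transcript held on average more than 90% of the gene's TPM, with Acvr1b-201 as the one listed transcript of its gene. *Acvr1* was spread over Acvr1-204 (52.0% on average over 8 mice), Acvr1-203 (26.7%) and Acvr1-201 (19.9%). All 3 had the same 1527 coding bases, so they differ outside the coding sequence. Bmpr1b-201 (81.1%) and Bmpr1b-204 (13.3%) likewise had the same 1506 coding bases.

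In *Tgfbr2* and *Acvr2b* the transcripts differed within the coding sequence, and these parts are shown because each changes the receptor protein. They are read from Gencode M21 (GRCm38), with the extra bases in capitals between 12 shared coding bases on each side.
Tgfbr2-202: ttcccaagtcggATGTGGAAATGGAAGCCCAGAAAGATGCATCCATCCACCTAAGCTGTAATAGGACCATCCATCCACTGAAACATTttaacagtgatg
Acvr2b-202: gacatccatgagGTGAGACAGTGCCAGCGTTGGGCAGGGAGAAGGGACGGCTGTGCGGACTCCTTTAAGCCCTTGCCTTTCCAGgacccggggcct
The 75 extra bases of Tgfbr2-202 are the whole of exon 2 (chr9:116158271-116158345, minus strand), follow 94 coding bases and add 25 codons near the start of the extracellular part. The 72 extra bases of Acvr2b-202 lie in exon 4 (chr9:119428353-119428424, plus strand), follow 522 coding bases and add 24 codons. They are intron in Acvr2b-205, beginning with GT and ending with AG as introns do.

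Tgfbr2-202, the longer form, made up 36.3, 39.2, 32.6 and 29.9% of *Tgfbr2* TPM in WT 1 to WT 4 and 32.2, 34.4, 35.6 and 32.95% in KO 1 to KO 4. The KO mice lay inside the WT range, and the means of 34.5 ± 4.11% and 33.8 ± 1.52% gave p = 0.771 in a two-sided exact permutation test (n = 4 each). Acvr2b-202, the longer form of *Acvr2b*, made up 28.4, 26.0, 21.2 and 26.0% in WT 1 to WT 4, against 16.9, 20.9, 23.9 and 18.8% in KO 1 to KO 4. WT 3 and KO 3 made the genotypes overlap. Few reads lay behind these shares: the whole gene had 222 to 460 per mouse. Acvr2b-202 itself lay between 0.377 TPM in KO 1 and 1.05 TPM in WT 4. The mean shares were 25.4 ± 3.06% and 20.1 ± 3.01%, with p = 0.0571 in the exact permutation test (n = 4 each), adjusted to 0.429 over 15 transcripts. Tgfbr1-201 gave the same p of 0.0571 (exact permutation, n = 4 each), at 90.9 ± 0.971% in WT and 89.6 ± 1.002% in KO mice. None of the 15 transcripts with a mean share of at least 5% passed the adjusted threshold of 0.1, which a single one could not have done, since the smallest p adjusts to 0.429 over 15.

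**Figure D5:**
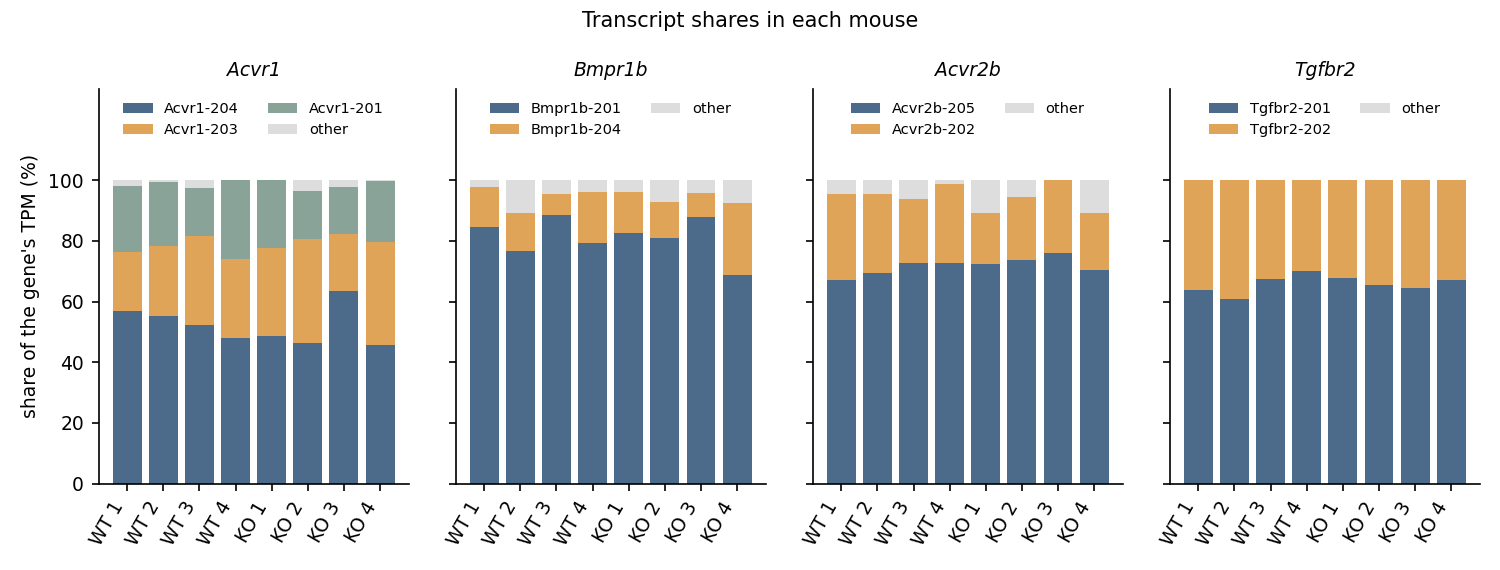
Share of each transcript in its gene's TPM, 1 bar per mouse from 0 to 100%, for the 4 receptors with more than 1 transcript above a mean share of 5%. Grey stands for all other transcripts. The orange part of the *Acvr2b* bars lies between 21.2 and 28.4% in WT and between 16.9 and 23.9% in KO mice.

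The other genes of the pathway were compared by genotype in the same fit. None of the tested genes on 4 lists passed an adjusted p of 0.1 or an unadjusted p under 0.05 in edgeR's quasi-likelihood test, and none had groups that did not overlap. Over all genes these shares were 0.00566%, 1.88% and 1.53%, so counts of 0 on lists of this size say nothing particular to them. Of the other receptors and co-receptors 12 of 13 were tested, with 4 higher and 8 lower in KO mice and a median log2 fold change of -0.064. The 15 regulators of receptors, such as the ubiquitin ligases *Smurf1* and *Smurf2* and the inhibitory *Smad6* and *Smad7*, had 6 higher and 9 lower (median -0.062). The 6 SMAD transducers had 2 higher and 4 lower (median -0.043). Of 19 ligands 16 were tested, with 5 higher and 11 lower (median -0.18). DESeq2 as run here called none of the listed genes either, without or with sex as a covariate. The study's own DESeq2 comparison, for which it named no covariate, did have *Bmp3* among its differentially expressed genes at an adjusted p under 0.1. Among the ligands, *Bmp3* had a log2 fold change of -1.43 with sex as a covariate, against -0.82 without. Its unadjusted p with sex was 0.0097 in edgeR's quasi-likelihood test fitted across all genes and 0.00604 in DESeq2. *Gdf1* had an unadjusted p of 0.0315 in DESeq2 without sex, with 10 and 102 reads in WT 1 and WT 2 and 0 in the other 6 mice. Both were named after their values were seen. *Cfc1*, *Gdf1*, *Gdf2* and *Bmp10* did not pass the filter on low counts.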

How the data were processed

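PolyA RNA libraries of 8 mice (4 WT, 4 KO, 1 library each) were sequenced by the authors on 1 lane; FASTQ files came from bcl2fastq 2.20 and were quantified with Salmon (version not given in the sources used here) against Gencode M29. The authors deposited expected counts per gene and, per transcript, expected counts, TPM and effective lengths; how transcripts were summed to genes is not stated. Gene symbols, transcript names, coordinates and sequences came from Gencode M21 (GRCm38), which named 94.8% of 54307 gene identifiers and 97.4% of 140793 transcripts, holding at least 99.2% of reads. Expected counts were rounded, filtered with filterByExpr and scaled by TMM, and 17669 genes were tested with edgeR 4.0.16 (quasi-likelihood, all 8 mice, genotype alone, or genotype and sex for the sex comparison). Benjamini-Hochberg adjustment ran over all genes, with a threshold of 0.1, and DESeq2 1.42.0 was an alternative. The script was tested on simulated data. CPM are TMM-scaled, TPM were summed over the transcripts of a gene, and correlations used log2 CPM with a prior count of 2. Shares were compared by exact permutation over 70 splits of the mice. The smallest library held 47887437 reads, and the receptors had between 222 and 15034 reads per mouse.

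The receptors and all gene lists were chosen with earlier results of these data known. The text names the 10 receptors, *Lrig1*, any listed pathway gene with an unadjusted p under 0.05 in edgeR's test of genotype alone (there was none), and the 2 genes most correlated with each receptor (not reported here for *Tgfbr2*). *Acvr1c* was also named, for its level, after its values were seen. Mice were separate animals, and p-values measure the spread between them. Replicate numbers were checked for pairing: the correlations of same-numbered mice were 0.077, -0.22, -0.23 and 0.27, so the numbers did not pair the mice. Alternatives were another normalization, tool, filter or covariate, females alone, transcript sums with length offsets, a replicate block and each mouse left out. Of 31-base words in the main transcripts, 4.39% of *Bmpr1a*, 7.36% of *Acvr2a* and 4.44% of *Tgfbr3* also occur in transcripts of other genes, and none in another receptor.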

Additional observations from a re-analysis of the deposited data

Results flagged for a closer look

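In 6 of 64 groups of 4 mice (9.38%), 1 mouse stood apart from the other 3, its gap to the nearest being a larger part of the group's range than Dixon's critical value. Chance flags about 1 in 20 groups. WT 2, the male with the highest cortical marker level, was the lowest WT mouse for *Tgfbr1* (34.9 CPM, with the next at 38.9), for *Tgfbr3* (7.67 CPM, with the next at 9.59) and for the share of *Bmpr1a* in the summed receptor TPM (11.7%, with the next at 13.4%). WT 3 was the highest WT mouse for the share of *Acvr1* (13%, with the next at 11.6%). WT 1 was the lowest WT mouse for the share of Tgfbr1-201 in its gene (89.5%, with the next at 91.3%). KO 4, the mouse with the lowest cortical marker level, had the lowest share of *Acvr1b* among KO mice (28.9%, with the next at 33.1%).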

How the results depend on the processing

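No receptor was called by genotype under any of 18 alternatives, and 5 of the 10 kept their direction in all of them. *Bmpr2* reversed with DESeq2 (-0.000543) and in females alone (-0.00973). With 1 mouse left out, log2 fold changes ran from -0.023 to 0.036 for *Bmpr2*, from -0.091 to 0.010 for *Acvr1b*, from -0.0055 to 0.33 for *Acvr2b*, from -0.11 to 0.0047 for *Tgfbr2* and from -0.016 to 0.10 for *Tgfbr3*. The count of all genes called by genotype was 1, and became 12 with DESeq2, 201 with DESeq2 and sex, 2 without a filter, 0 with at least 10 counts in every mouse, 2 with sex, 2 with the cortical marker level, 3 in females alone and 0 to 3 with 1 mouse left out. With a replicate block it was 0, and no receptor was called. Only 1 of the 4 WT mice correlated best with the KO mouse of its own number. By sex, 657 genes were called, against 1537 with DESeq2, 1360 without a filter, 7 without the genotype term, 0 with the cortical marker level, and 10 (without WT 2) to 1462 (without KO 1) with 1 mouse left out. DESeq2 called 1 receptor by sex, *Acvr2b* (0.53, adjusted p = 0.0703). The shares of the receptors (10 alternatives) and of their transcripts (11 alternatives) gave 0 calls throughout, but a single share could not have passed the adjusted threshold, so this says nothing of stability. The causes were not tested. DESeq2 with sex, the cortical covariate and the filters on the sex comparison were added after seeing the data. With 4 mice a group, the genotype intervals reached 48.4% for *Acvr2a* and 55.2% for *Acvr2b*, so differences within these bounds could not be shown.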
